A study of Homo sapiens with 3 samples.

Results

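The genes described here make ribosomes in the nucleolus, and 44 of them were chosen by name: nucleolar scaffold proteins, subunits and factors of RNA polymerase I, core proteins of both classes of small nucleolar RNP, assembly factors of the small and the large ribosomal subunit, and MYC. All 44 were listed in all 3 libraries, out of 21308 genes listed in all 3, and all 44 passed the filter on low values. The list was drawn up with results of these libraries known, and NOLC1 was singled out in it for its level, so that values of the knockdown against the control are given as a description. The libraries come from UM-UC-3, a human bladder cancer cell line. Cells received NONO siRNA 1, NONO siRNA 2 or a control siRNA at 75 nM and were kept for 48 h, and a lone library with paired reads of 100 bp stands for each of the 3 siRNAs. NONO binds RNA and DNA and acts in paraspeckles, transcription and splicing, and the study asked how it acts on SETMAR splicing and lymphatic spread.

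Ribosome production starts in the nucleolus, where RNA polymerase I transcribes a long precursor of the ribosomal RNAs. Small nucleolar RNPs modify this precursor, the box C/D class by methylation and the box H/ACA class by pseudouridylation, while assembly factors cut it, fold it and load it with ribosomal proteins. MYC is a transcription factor known to drive many of these genes in dividing and cancer cells.

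The 3 siRNAs were given in the labels with the sequences below, shown because sites for them are read beside the results. Capitals mark bases 2 to 8 from the 5′ end, the seed of that strand.
NONO siRNA 1: gGCGAAGUcuucauucauatt
NONO siRNA 2: gCAUCCCUuacaguucgaatt
control siRNA: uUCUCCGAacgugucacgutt
The first 19 bases of both NONO siRNAs as labelled occurred in the NONO transcript, so the strand opposite to the labelled one is the one that pairs with NONO. Neither strand of the control siRNA occurred in that transcript, and the labels do not say which of its strands is meant as the guide.

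The libraries held 29408573 reads on genes with NONO siRNA 1, 28594569 with NONO siRNA 2 and 27681990 with the control siRNA. NONO stood at 79.5 CPM (reads scaled to the library total, not corrected for gene length) with siRNA 1 and 104 CPM with siRNA 2, against 823 CPM in the control library. Of 8 urothelial markers, KRT8 stood at 43.0 CPM with siRNA 1 and 85.4 CPM with siRNA 2, against 77.1 CPM in the control library, and KRT18 at 49.0 CPM with siRNA 1 and 93.3 CPM with siRNA 2, against 111 CPM. The siRNA 1 library was the lowest in both. KRT7, KRT19, UPK2 and GATA3 lay at 2.04 CPM or less, and UPK1B and UPK3A were not in all 3 libraries. Of the 2 mesenchymal markers, VIM stood at 947 CPM with siRNA 1 and 960 CPM with siRNA 2, against 1380 CPM in the control library. CDH2, the other, went the opposite way, at 70.0 CPM with siRNA 1 and 80.8 CPM with siRNA 2, against 54.6 CPM. Summed markers of other cell types stood, for endothelium (3 of 4 listed, mostly TIE1), at 16.3 CPM with siRNA 1 and 31.5 CPM with siRNA 2, against 57.6 CPM in the control library, and for fibroblasts (2 of 5 listed, mostly THY1) at 15.4 and 18.3 CPM, against 24.6 CPM. Of 5 leukocyte markers ITGAM alone was in all 3 libraries, at 1.30 CPM or less, CDH5, DCN, LUM and COL1A2 were not, and the part of these lists in the results was not tested. The nucleolar genes lay between 20.9 and 1955 CPM, and the fewest reads behind any of these values was 597. In bulk RNA, a change in RNA per cell and a change in the kinds of cell present cannot be told apart.

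NOLC1 stood about 3 times as high in both knockdown libraries as in the control library. NOLC1, also called Nopp140, is a phosphoprotein that escorts small nucleolar RNPs between the nucleolus and Cajal bodies (ENSG00000166197, GRCh38 chromosome 10, 102152176 to 102163871, plus strand). NOLC1 reached 482 CPM with siRNA 1 (95% Poisson interval 474 to 490) and 436 CPM with siRNA 2 (428 to 444), against 154 CPM in the control library (149 to 159). The ratio to the control was 3.13 with siRNA 1 and 2.83 with siRNA 2, and the counting intervals of the 3 libraries did not overlap. The mean log2 fold, on the log2(CPM + 1) scale used for all folds here, was 1.57 with an SE of 0.21. Per kilobase of exon, NOLC1 ranked 3rd among the 44 genes in both knockdown libraries, at 121 CPM per kb with siRNA 1 and 110 CPM per kb with siRNA 2, and 14th in the control library, at 38.8 CPM per kb.

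TCOF1, NOC2L and DKC1 followed at smaller ratios. TCOF1 codes for treacle, a nucleolar protein that serves RNA polymerase I transcription and is mutated in Treacher Collins syndrome. It stood at 255 CPM with siRNA 1 and 226 CPM with siRNA 2, against 130 CPM in the control library, with log2 folds of 0.97 and 0.80. NOC2L, a large subunit factor that also acts as an inhibitor of histone acetylation, stood at 221 CPM with siRNA 1 and 168 CPM with siRNA 2, against 124 CPM in the control library. Its exons overlap those of SAMD11 on the opposite strand, and whether reads were counted by strand is not given in the sources used here. DKC1 codes for dyskerin, the pseudouridine synthase of box H/ACA particles, and stood at 394 CPM with siRNA 1 and 318 CPM with siRNA 2, against 239 CPM in the control library. For each of these 3 genes both knockdown libraries were higher than the control library. The other 40 genes had mean log2 folds between -0.48 and 0.24.

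**Figure D1:**
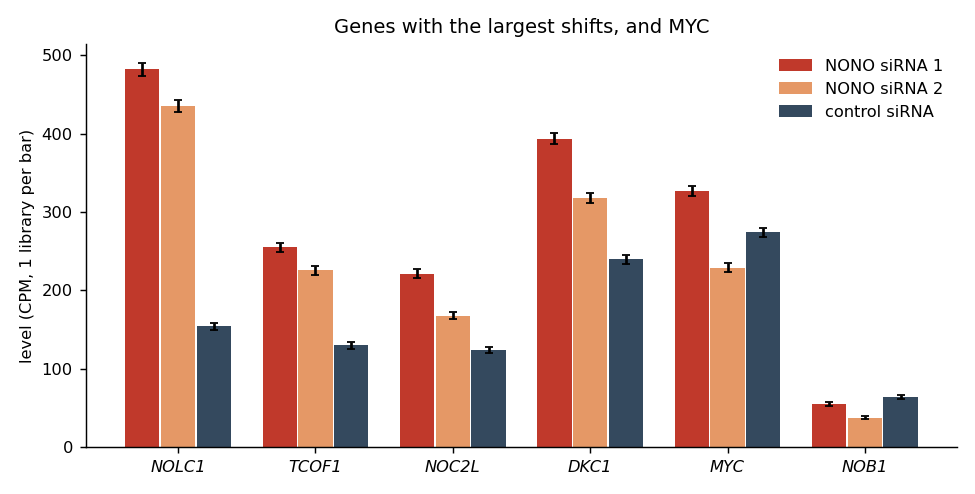
Level in CPM (vertical axis) of 6 genes in the NONO siRNA 1, NONO siRNA 2 and control siRNA libraries; each bar is 1 library and the error bars are 95% Poisson intervals, which cover counting error only. NOLC1 stands at 482 and 436 CPM in the knockdown libraries and 154 CPM in the control library, while MYC lies above the control with siRNA 1 and below it with siRNA 2.

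Across all genes, limma called 1 of the 44, NOLC1, at an adjusted p of 0.0368, against a background of 0.215% of the 13922 genes tested (30 genes). Since the gene was singled out with this contrast known, nothing is read from that share. At an unadjusted p under 0.05 limma had 4 of the 44, against 11.4% of genes tested. The adjusted p in limma was 0.165 for TCOF1, 0.374 for NOC2L and 0.388 for DKC1. The call of NOLC1 depended on the settings. It was lost in limma with TMM scaling (adjusted p = 0.0912), where 0.0287% of genes were called, and in edgeR on the same genes (adjusted p = 0.127), where 0.00718% were. It was held in limma with upper-quartile scaling (adjusted p = 0.00162), where 1.73% of genes were called, in DESeq2 (adjusted p = 5.25e-05), where 1.49% were, and in edgeR with its own filter (adjusted p = 0.00611), where 0.92% were. At least 1.5-fold higher with both siRNAs were 2 of the 44, NOLC1 and TCOF1, against 5.49% of genes tested, and none was 1.5-fold lower with both, against 3.39%.

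Sites for the control siRNA stood beside these levels. The 7 bases that pair with the seed of its labelled strand occurred in the longest coding transcript of 10 of the 44 genes, against 11.8% of 11792 genes searched. These 10 were NOLC1, TCOF1, NOC2L, POLR1A, POLR1B, UBTF, NHP2, NOP10, NOP14 and UTP20. The site for the opposite strand of the control siRNA was in MYBBP1A, and in none of NOLC1, TCOF1, NOC2L and DKC1. A control siRNA site below means one for the labelled strand, which may not be the guide. In both NONO siRNAs the labelled strand is the one that does not pair with NONO. The share of all genes with the site for the opposite strand of the control siRNA, and their folds, are not given here. NOLC1 held 1 site, in the 3′ UTR in exon 13 of 13 of NOLC1-202. TCOF1 held 3 sites, in coding exons 3, 12 and 18 of the 27 exons of TCOF1-202. NOC2L held 2 sites, in coding exons 8 and 17 of the 19 exons of NOC2L-201, and the first is shown, since an intron splits the window of the other on the genome. NOP10 also held its site in the 3′ UTR. NOLC1, TCOF1 and NOC2L were picked by their levels in this same contrast, so nothing is read from the sites they hold. The sites of POLR1A, POLR1B, UBTF, NHP2, NOP14 and UTP20 are not shown. The windows of 30 bases below, from GENCODE 29 transcripts on GRCh38, show sites of NOLC1, TCOF1, NOC2L and NOP10 in capitals.
NOLC1, chr10:102162292-102162321, plus strand: caagggtgatgaTCGGAGActacttacttt
TCOF1 exon 3, chr5:150364189-150364218, plus strand: cccatcagcaccTCGGAGAgctcggaagag
TCOF1 exon 12, chr5:150375826-150375855, plus strand: cccatggacaacTCGGAGAgcagcgaggag
TCOF1 exon 18, chr5:150387998-150388027, plus strand: aaggcccgagccTCGGAGAgcacagccagg
NOC2L exon 8, chr1:953860-953889, minus strand: gtgtcctgtctgTCGGAGAcgacggtgttg
NOP10, chr15:34341909-34341938, minus strand: acctgttaccccTCGGAGActccgtaacca

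The 10 genes with the site had median log2 folds of 0.31 with siRNA 1 and 0.05 with siRNA 2, and the 34 without it 0.13 and -0.19. Among all genes tested that were searched, the 1397 with the site had medians of 0.16 and 0.10, and the 10395 without it -0.0011 and -0.021. For the 257 genes with the site in the 3′ UTR the medians were 0.18 and 0.14, and for the 11535 without it there 0.011 and -0.011. NOP10, an RNA-binding component of box H/ACA particles, holds its site in the 3′ UTR. It stood at 48.7 CPM with siRNA 1 and 43.6 CPM with siRNA 2, against 41.3 CPM in the control library. Its ratios to the control were 1.18 and 1.06. DKC1 held no control siRNA site. UBTF, NHP2, POLR1A and POLR1B held the site with log2 folds between -0.05 and 0.33 with siRNA 1 and between -0.16 and 0.27 with siRNA 2. Sites for the strands that pair with NONO were in 7 of the 44 genes for siRNA 1 and in 4 for siRNA 2, and in none of NOLC1, TCOF1, NOC2L and DKC1. The share of all genes with these sites is not given here. The 7 genes had median log2 folds of 0.25 with siRNA 1 and 0.025 with siRNA 2, and the 4 genes 0.27 and 0.022. POLR1A, UBTF, NOP14 and UTP20 of these sets are also among the 10 genes with the control siRNA site. The sets thus overlap, and their medians are no separate comparison. The part of siRNA sites in these levels was not tested.

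**Figure D2:**
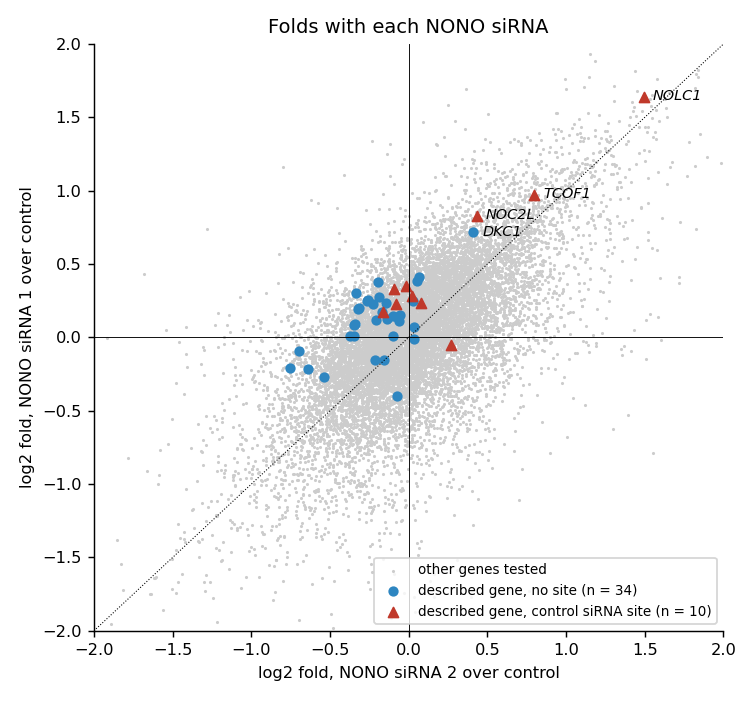
Log2 fold over the control library with NONO siRNA 1 (vertical axis) against that with NONO siRNA 2 (horizontal axis), on the log2(CPM + 1) scale, for the 44 nucleolar genes and the other genes tested; triangles hold a site of the labelled control siRNA strand and circles do not, and 44 genes lie outside the axes. NOLC1, TCOF1 and NOC2L, all with a site, and DKC1, with none, lie to the upper right of the other 40, and most other nucleolar genes lie above the dotted line of equal folds.

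Across the whole list, the nucleolar genes stood mostly higher than the control with siRNA 1 and mostly lower with siRNA 2. With siRNA 1, 35 of 44 were higher, against 52.6% of genes tested, with a median log2 fold of 0.17. With siRNA 2, 32 of 44 were lower, against 49.3% of genes tested, with a median of -0.14. The medians over all genes tested were 0.025 with siRNA 1 and 0.0073 with siRNA 2. Higher with siRNA 1 and lower with siRNA 2 were 25 of the 44, against 14.8% of genes tested. Higher with both were 10 of the 44, against 37.8% of genes tested, and lower with both were 7, against 34.5%. The remaining 2, UBTF and RRP1B, were lower with siRNA 1 and higher with siRNA 2, against 12.9% of genes tested. With TMM scaling UTP3, UTP4 and WDR43, whose log2 folds with siRNA 1 were under 0.01, turned to lower with both, which made 10 genes lower with both. With upper-quartile scaling UTP4 and WDR43 turned likewise. Both folds of a gene share the lone control library.

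The direct difference between the knockdown libraries does not use the control. It equals the difference between the 2 folds above, so it is not a separate check on their ordering. With siRNA 1, 41 of the 44 stood higher than with siRNA 2, against 52.7% of all genes tested and 53.0% of the 6477 genes in the same range of mean CPM. The median difference was 0.33 on the log2 scale for the 44 genes and 0.021 for all genes tested. At least 1.2-fold higher with siRNA 1 were 29 of the 44, against 21.1% of genes tested, and 2 (NCL and UBTF) were at least 1.2-fold lower, against 21.6%. The exact binomial 95% interval of the ratio lay above 1 for 38 genes and below 1 for NCL and UBTF, and held 1 for NPM1, UTP6, UTP18 and RRP1B. These intervals cover counting error only. There is 1 library per siRNA, so this difference has no replicate check, and it cannot be told apart from a difference between the 2 cultures or libraries. Without the 10 genes that hold the control siRNA site, 32 of 34 were higher with siRNA 1. The control library does not enter this difference, so that count is no check of it. The share of reads on mitochondrially encoded genes moved in the same order, at 7.35% with siRNA 1 and 6.14% with siRNA 2, against 6.83% in the control library, and its part in the result was not tested.

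**Figure D3:**
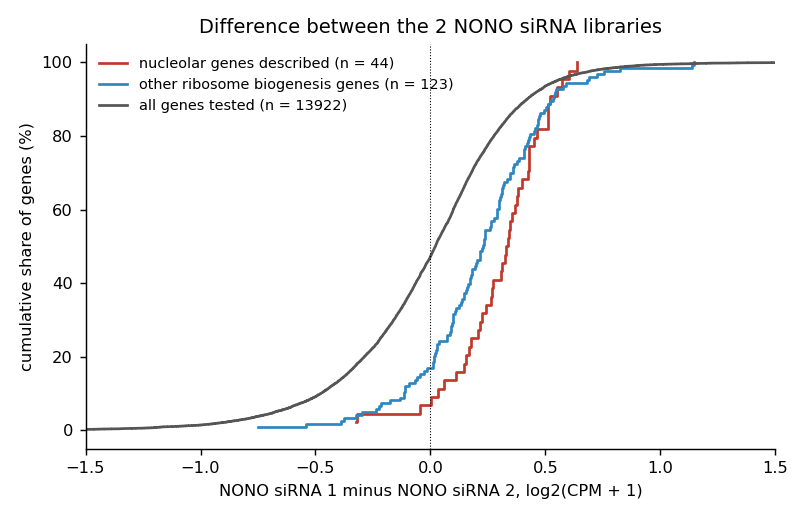
Cumulative share of genes (vertical axis, %) by the log2 difference of NONO siRNA 1 minus NONO siRNA 2 (horizontal axis), for the 44 nucleolar genes, 123 other ribosome biogenesis genes and all genes tested; 46 genes lie outside the axis. The median difference is 0.33 for the nucleolar genes, 0.23 for the other ribosome biogenesis genes and 0.021 for all genes tested.

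Of the most abundant scaffold proteins, NPM1 was level between the siRNAs and NCL was lower with siRNA 1 than with siRNA 2. NPM1, nucleophosmin, a chaperone of ribosomal proteins, stood at 1760 CPM with siRNA 1 and 1756 CPM with siRNA 2, against 1955 CPM in the control library. Its 45 annotated pseudogenes make its reads uncertain. NCL, nucleolin, an RNA-binding protein of the precursor RNA, stood at 817 CPM with siRNA 1 and 1023 CPM with siRNA 2, against 1078 CPM in the control library. In NCL the siRNA 1 library was the lowest of the 3. Per kilobase of exon, NPM1 was the highest of the 44 genes in each library, at 460 CPM per kb with siRNA 1 and 459 CPM per kb with siRNA 2, against 511 CPM per kb in the control library. MYBBP1A, a nucleolar MYB-binding protein, stood at 272 CPM with siRNA 1 and 197 CPM with siRNA 2, against 224 CPM in the control library, with siRNA 1 above and siRNA 2 below the control.

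Of the RNA polymerase I genes, RRN3 had the largest difference between the siRNAs. RRN3 brings the polymerase to the promoter of the ribosomal RNA genes, and stood at 86.2 CPM with siRNA 1 and 56.5 CPM with siRNA 2, against 92.1 CPM in the control library. Its siRNA 2 library stood apart below the others, with a ratio of siRNA 1 over siRNA 2 of 1.53 (1.43 to 1.62). RRN3 has 3 annotated pseudogenes, which make its reads uncertain. POLR1A and POLR1B, the largest subunits of the enzyme, were at 324 and 89.2 CPM with siRNA 1, at 256 and 66.1 CPM with siRNA 2, and at 287 and 70.7 CPM in the control library. UBTF, which binds the promoter with the polymerase, went the other way, at 159 CPM with siRNA 1 and 198 CPM with siRNA 2, against 164 CPM in the control library.

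The box C/D core proteins were alike in sign. FBL, fibrillarin, the ribose methyltransferase, stood at 287 CPM with siRNA 1 and 210 CPM with siRNA 2, against 245 CPM in the control library. NOP56 and NOP58, the paired core proteins beside it, had log2 folds of 0.15 and 0.11 with siRNA 1 and of -0.10 and -0.06 with siRNA 2. All 3 were above the control with siRNA 1 and below it with siRNA 2. Of the box H/ACA proteins, NHP2 had log2 folds of 0.23 and -0.08. GAR1, the glycine- and arginine-rich member, stood at 51.3 CPM with siRNA 1 and 35.5 CPM with siRNA 2, against 44.6 CPM in the control library. DKC1 thus stood higher with both siRNAs while 2 of its 3 partners, NHP2 and GAR1, were higher with siRNA 1 and lower with siRNA 2.

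All 16 small subunit factors were higher with siRNA 1 than with siRNA 2, with a median difference of 0.36 on the log2 scale. LTV1, which helps to mature and export the small subunit precursor, had the largest difference of all 44 genes. It stood at 38.3 CPM with siRNA 1 and 24.3 CPM with siRNA 2, against 30.9 CPM in the control library. The ratio of siRNA 1 over siRNA 2 was 1.58 (1.43 to 1.74). LTV1 has 1 annotated pseudogene, and its exons overlap those of AL049844.1 and AL049844.3 on the same strand, so its reads are uncertain. NOB1, the endonuclease that trims the end of the small subunit RNA, had the lowest mean log2 fold of the 44 (-0.48, SE 0.29). It stood at 55.1 CPM with siRNA 1 and 37.4 CPM with siRNA 2, against 63.8 CPM in the control library. NOC4L and UTP6, of the early small subunit particle, were also below the control with both siRNAs, at 28.4 and 78.2 CPM with siRNA 1, at 20.9 and 75.0 CPM with siRNA 2, and at 33.2 and 87.1 CPM in the control library. RRP12, an export factor, was the highest of this group, with log2 folds of 0.38 and 0.05. The other 11 had log2 folds between 0.0065 and 0.35 with siRNA 1 and between -0.37 and 0.036 with siRNA 2.

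Of these 11, all but UTP18 and UTP20, that is RRP9, BYSL, TSR1, WDR75, UTP15, UTP3, UTP4, WDR43 and NOP14, were above the control with siRNA 1 and below it with siRNA 2. RRP9, a protein of the U3 particle, stood at 54.8 CPM with siRNA 1 and 38.1 CPM with siRNA 2, against 47.6 CPM in the control library. BYSL, bystin, stood at 45.2 CPM with siRNA 1 and 34.6 CPM with siRNA 2, against 38.3 CPM in the control library. TSR1, a GTPase-like factor of the cytoplasmic small subunit precursor, stood at 181 CPM with siRNA 1 and 156 CPM with siRNA 2, against 164 CPM in the control library. UTP4, UTP15, WDR43 and WDR75 belong to a complex that binds the precursor RNA first, with log2 folds between 0.0065 and 0.17 with siRNA 1 and between -0.37 and -0.10 with siRNA 2. UTP3, of the same early particle, had log2 folds of 0.0089 with siRNA 1 and -0.35 with siRNA 2. NOP14, which holds a control siRNA site, stood at 46.0 CPM with siRNA 1 and 35.4 CPM with siRNA 2, against 35.9 CPM in the control library. UTP20, which also holds one, stood at 156 CPM with siRNA 1 and 130 CPM with siRNA 2, against 128 CPM in the control library. UTP18, with no such site, stood at 86.7 CPM with siRNA 1 and 84.7 CPM with siRNA 2, against 82.5 CPM in the control library. In NOP14 and UTP20 the siRNA 2 library was thus next to the control and siRNA 1 above both, and in UTP18 all 3 libraries lay close together.

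Of the 11 large subunit factors, 10 were higher with siRNA 1 than with siRNA 2. NOP2, an RNA cytosine methyltransferase, had the lowest mean of the group and stood at 161 CPM with siRNA 1 and 133 CPM with siRNA 2, against 194 CPM in the control library. PES1, BOP1 and WDR12 form a complex that the large subunit precursor needs, and had log2 folds of 0.41, 0.12 and 0.25 with siRNA 1 and of 0.07, -0.14 and 0.03 with siRNA 2. PES1 stood at 204 CPM with siRNA 1 and 160 CPM with siRNA 2, against 153 CPM in the control library. RRP1 stood at 54.8 CPM with siRNA 1 and 36.5 CPM with siRNA 2, against 41.9 CPM in the control library. GNL3, the nucleolar GTPase nucleostemin, had log2 folds of 0.25 and -0.26. The remaining 4 of these factors, NOP16, RRP1B, NIP7 and NOC3L, had log2 folds between -0.0089 and 0.15 with siRNA 1 and between -0.35 and 0.036 with siRNA 2.

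**Figure D4:**
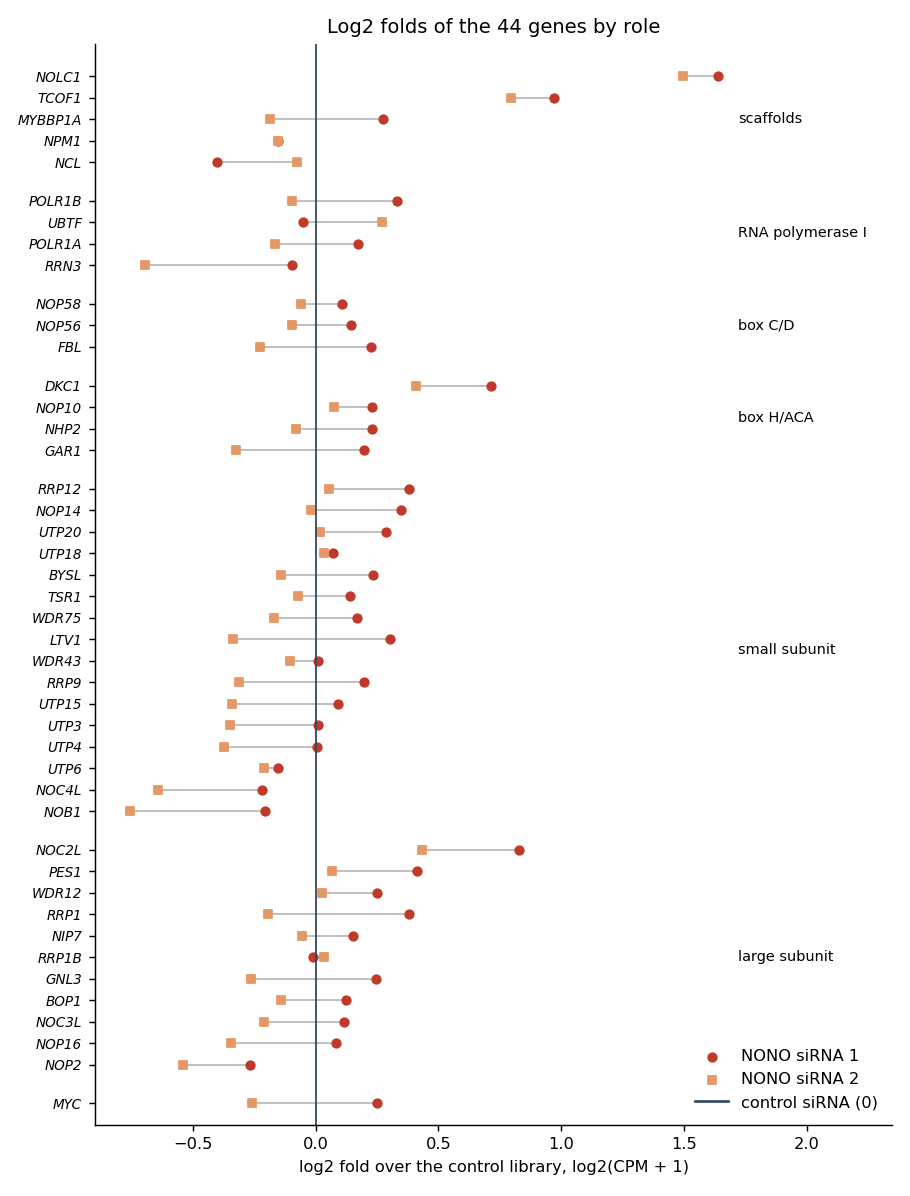
Log2 fold over the control library (horizontal axis, log2(CPM + 1)) of each of the 44 genes, grouped by role, with circles for NONO siRNA 1 and squares for NONO siRNA 2; the vertical line at 0 is the control library. NOLC1, TCOF1, DKC1 and NOC2L lie to the right with both siRNAs, and in 41 genes the circle lies to the right of the square.

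MYC itself lay above the control with siRNA 1 and below it with siRNA 2, one of the 25 genes that did so. Its level was 326 CPM with siRNA 1 (320 to 333) and 229 CPM with siRNA 2 (223 to 234), against 274 CPM in the control library (268 to 280), and these counting intervals did not overlap. Its log2 folds came to 0.25 and -0.26, and the ratio of siRNA 1 over siRNA 2 was 1.43 (1.38 to 1.47). Of 11 genes of the MYC network, 10 were in all 3 libraries, and limma called none of them, with 1 at an unadjusted p under 0.05 against 11.4% of all genes tested, and edgeR and DESeq2 called none either. MXD1, which competes with MYC for their shared partner, had log2 folds of -1.37 and -0.55, and MAX, that partner, had -0.10 and -0.74. MXD4 and MXI1, of the same antagonist family, had -0.20 and -0.29 with siRNA 1, and -0.57 and -0.16 with siRNA 2. MXD3, of that family too, went the other way. MXD3, MGA and MNT had positive log2 folds with both siRNAs, between 0.11 and 0.70. The canonical E-box CACGTG, which reads alike on both strands and which MYC can bind, was found in the 250 bases before the start of 4 of the 37 nucleolar genes with an entry among the RefSeq promoters of GRCh38.p14, against 7.73% of 27305 genes. These were NOP10, UTP4, UTP18 and UTP20, and the genes with no entry were NOLC1, TCOF1, NOP58, RRP12, RRP1B, BOP1 and MYC.

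Other ribosome biogenesis genes showed a like order between the siRNAs. Of a list of 123 such genes outside the 44, 102 (82.9%) were higher with siRNA 1 than with siRNA 2, and the list's medians came to 0.092 with siRNA 1 and -0.10 with siRNA 2 on the log2 scale. limma called none of the 123, with 6 at an unadjusted p under 0.05 against 11.4% of all genes tested, while DESeq2 and edgeR with its own filter each called DHX37. DHX37, a helicase of the small subunit precursor, stood at 92.5 CPM with siRNA 1 and 82.8 CPM with siRNA 2, against 34.2 CPM in the control library. BMS1, a GTPase of the same particle, stood at 238 CPM with siRNA 1 and 171 CPM with siRNA 2, against 111 CPM in the control library. MAK16, of the large subunit precursor, had log2 folds of 0.79 and 0.81, and NMD3, the export adaptor of the large subunit, had 0.42 and 0.48. On the low side, NOL9, a kinase of RNA ends, stood at 34.9 CPM with siRNA 1 and 32.5 CPM with siRNA 2, against 65.7 CPM in the control library. PIH1D1, an assembly factor of small nucleolar RNPs, and RCL1, of the small subunit precursor, had log2 folds between -0.72 and -0.63. PPAN was near 1 CPM, and its reads can be split with a read-through gene that overlaps it. The control siRNA site on the labelled strand was in BMS1 among the high genes and in NOL9, RCL1 and PPAN among the low ones.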

How the data were processed

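The authors deposited 1 table per library with CPM per Ensembl gene. Per the submitters' processing notes, which give no roles, the builds were GRCh37 and hg19 and the tools HTSeq 0.6.1, HISAT2 2.1.0 and bcl2fastq 2.19.1. The annotation and whether counting used strand were not given in the sources used here. Between 99.3% and 99.5% of deposited CPM values were whole multiples of 1 read within 0.01 reads, and the rest (117 to 147 genes), below 1 read, were taken as 0. Genes listed in all 3 tables that reached 1 CPM in any library were tested with limma 3.58.1 (trend, R 4.3.3) on log2(CPM + 1), both NONO siRNA libraries against the lone control, two-sided, with Benjamini-Hochberg adjustment over all genes and calls under 0.05. The fit had 1 residual and 7.68 prior degrees of freedom, and p-values measure only the spread between 2 different siRNAs and assume that the control varies alike. Nothing says that the libraries are separate cultures. edgeR 4.0.16 and DESeq2 1.42.0 were run on recovered reads, where edgeR's default filter was an addition chosen after seeing the data, as were leaving out genes with a control siRNA site and the other settings for the difference between siRNAs. Poisson and binomial intervals are exact at 95%. Sites were 7-base matches in the longest protein-coding transcript of each gene. The fits were tested on simulated data.

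The members, lists and alternatives were chosen with earlier results of these data known. In full were named NOLC1, MYC, the 6 highest and 6 lowest members by the smaller absolute log2 fold among those with the same sign with both siRNAs, the extremes of each role, the 4 largest differences between siRNAs, and 4 highest and 4 lowest genes of each other list. Symbols came from a name table (21049 identifiers), positions, exon lengths and transcripts from GENCODE 29 on GRCh38, which is not the build in the notes.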

Additional observations from a re-analysis of the deposited data

How the results depend on the processing

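The number of genes called moved by over 1.5 times with each change of scaling, filter, trend or tool tried, and stayed at 26 and 27 with smaller pseudocounts. Against 30 genes in limma, the count was 4 with TMM scaling, 241 with upper-quartile scaling, 3 without the trend, 5 at a mean of at least 5 CPM, 1 in edgeR on the same genes, 156 in edgeR with its own filter, 207 in DESeq2, and 0 in limma without a filter, where 1882 genes had an unadjusted p under 0.05. Of the 44 nucleolar genes 1 was called, NOLC1, and 0 with TMM scaling, without the trend, at a mean of at least 5 CPM, without a filter and in edgeR on the same genes. Among the 34 genes without a control siRNA site, which leave out NOLC1 itself, 0 were called. The mean log2 fold of NOLC1 lay between 1.49 and 1.64 in all settings. Of the 123 other ribosome biogenesis genes 1 was called with upper-quartile scaling, in DESeq2 and in edgeR with its own filter. The median difference between the siRNAs lay between 0.32 and 0.34 in all settings tried, with 40 or 41 of 44 genes higher with siRNA 1. Leaving out 1 NONO siRNA library gave values with no test, with 12 to 35 nucleolar genes higher and 9 to 32 lower than the control, and 36 to 78 higher and 45 to 87 lower of the other ribosome biogenesis genes. Of the 34 genes without a control siRNA site, 5 were higher with both siRNAs, against 34.6% of the 10395 genes tested without it. Of the 10 genes with the site 5 were, against 47.7% of the 1397 genes tested with it. No paired analysis was possible, because there is 1 control library and the numbers of the NONO libraries name the siRNA. The cause of these shifts was not tested. With a lone control library and 1 library per siRNA, counting intervals show the precision of each library and not of the treatment.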

Other observations

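Of the 44 nucleolar genes, 7 carry annotated small nucleolar RNA genes inside them on GRCh38, 25 in all, of which 10 were listed in all 3 libraries. These hosts are NCL, NOP56, NOP58, DKC1, WDR43, TSR1 and GNL3. The median log2 fold of the hosts was 0.14 with siRNA 1 and -0.08 with siRNA 2, and that of the other 37 genes 0.20 and -0.16. The exons of 16 of the 44 genes overlap those of a gene on the opposite strand, NOC2L among them. Exons of LTV1 and of NOP2 overlap other annotated genes on the same strand. Summed over the 41 genes other than NOLC1, NCL and NPM1, the level was 5970 CPM with siRNA 1 and 4854 CPM with siRNA 2, against 5102 CPM in the control library.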
